A study of Bos taurus with 12 samples.

Results

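The nuclear-encoded subunits of respiratory complexes III, IV and V were examined in female and male bovine expanded blastocysts. Genes were taken by symbol from the table of read counts: symbols beginning with UQCR or ATP5, the symbols CYC1 and CYCS, and COX followed by one digit from 4 to 8 and a letter. This gave 45 of the 32637 genes, namely 9 of complex III, 17 of complex IV, 18 of complex V and CYCS, which encodes the mobile carrier cytochrome c. All 45 were annotated as protein-coding, 44 on autosomes and COX7B on the X chromosome. Of these, 41 had enough counts to be tested, and the 4 others were COX4I2, COX6A2, COX7A1 and COX8B of complex IV.

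Complexes III and IV are the last proton pumps of the mitochondrial respiratory chain, and complex V uses the resulting proton gradient to make ATP. Complex III passes electrons from ubiquinol to cytochrome c, and complex IV, cytochrome c oxidase, hands them to oxygen. Some subunits of these complexes are encoded by the mitochondrial genome, so the nuclear genes described here supply most but not all of the parts of each. A blastocyst uses ATP to pump sodium across its outer epithelium, the trophectoderm, while the cavity expands.

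The embryos (Bos taurus) were produced by in vitro fertilization, with semen of bulls used in weekly rotation, and were collected as expanded blastocysts on Day 7 or Day 8 with no treatment. Each embryo was cut, one piece was sexed by PCR and the other was kept for RNA-seq, and the kept pieces of 2 embryos of one sex made 1 replicate. There were 6 female and 5 male replicates. Libraries were made from polyA RNA with a full-length cDNA kit for low input (SMART-Seq HT PLUS), without a separate extraction and without molecular identifiers. A pool holds both the inner cell mass and the trophectoderm, and in such bulk samples fewer cells of a type and less RNA per cell cannot be told apart.

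Library depth ranged from 6664112 to 16162985 counts in females and from 9942952 to 21392764 in males. XIST, transcribed from the inactive X chromosome, was at 52.3 to 260.9 CPM (counts scaled to library size) in females and 0.745 to 3.97 CPM in males, and the Y-linked DDX3Y was at 0 to 1.89 CPM in females and 31.9 to 152 CPM in males, so no library went against its label. Male replicate 5 was the deepest library and had the fewest genes detected (14937), and male replicate 4 had the lowest scaling factor (0.878). Markers of the inner cell mass, the trophectoderm and the hypoblast were detected in both sexes and none differed at the threshold used. The summed level of 10 trophectoderm markers was 7879 to 23154 CPM in females and 9195 to 36145 CPM in males. The highest value was male replicate 5 and the next male was at 20252 CPM. In male replicate 5 the largest parts were KRT8 (20142.5 CPM), LGALS3 (9367 CPM) and KRT18 (3836 CPM). There CDX2, GATA3 and DAB2 were also above their female means. GATA2, TFAP2A and TFAP2C were near theirs, and PTGS2 (1090 CPM) was below its female mean (2511 CPM). The 7 hypoblast markers summed to 228 to 621 CPM in females and 208 to 467 CPM in males, lowest in male replicate 5. The 6 inner cell mass markers in the table summed to 560 to 980 CPM in females and 792 to 1076 CPM in males. Markers of cumulus cells, which surround the oocyte, summed to 7.19 to 32.7 CPM in females and 5.38 to 29.5 CPM in males, with 3 of 7 testable. No marker was at 0 in every library, and the part of cell composition in the results was not tested.

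Levels below are CPM scaled with TMM factors, a between-library normalization, and differences are log2 fold changes of males over females from edgeR's quasi-likelihood test with the library number as a blocking factor. The call required a false discovery rate (FDR, Benjamini-Hochberg over all 12802 tested genes) below 0.1 together with a fold change above 1.5. Such calls took in 1.91% of tested genes in either direction, and 0.414% were called as higher in males.

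Most subunits had a somewhat higher estimate in male blastocysts, and the median of complex IV was below those of complexes III and V. Of the 41 tested members, 37 had a higher estimate in males, and the median of their log2 fold changes was 0.36 against 0.005 over all tested genes. Only 2 members, UQCRC1 and CYC1 of complex III, were called, both higher in males. With the FDR alone, ATP5F1D and ATP5F1A of complex V passed as well, a rule that 2.07% of all tested genes met. At an unadjusted p under 0.05 there were 22 members higher in males, where 6.26% of all tested genes were, and 1 lower, COX7B. In 6 members (CYC1, UQCRC1, ATP5F1A, ATP5F1B, ATP5F1C and ATP5IF1) every male library lay above every female library, against 1.43% of all tested genes.

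The members are abundant transcripts, and abundant genes as a group leaned to males. Among the 3408 tested genes with a mean of 50 CPM or more, of which 39 are members, 64.3% had a higher estimate in males and the median was 0.092. Of these abundant genes 12.6% were higher in males at an unadjusted p under 0.05, and in 3.61% every male library lay above every female library. The lean of the members also depended on male replicate 4. Without it their median fell to 0.19, with 78.0% higher in males, while abundant genes as a whole stood at 0.030 and 55.4%. The number of members at an unadjusted p under 0.05, which was 23 with all libraries, was 12 without male replicate 4, 15 without male replicate 3, 14 without female replicate 5 and 11 without female replicate 6. Without male replicate 5 the median of the members was 0.41.

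**Figure D1:**
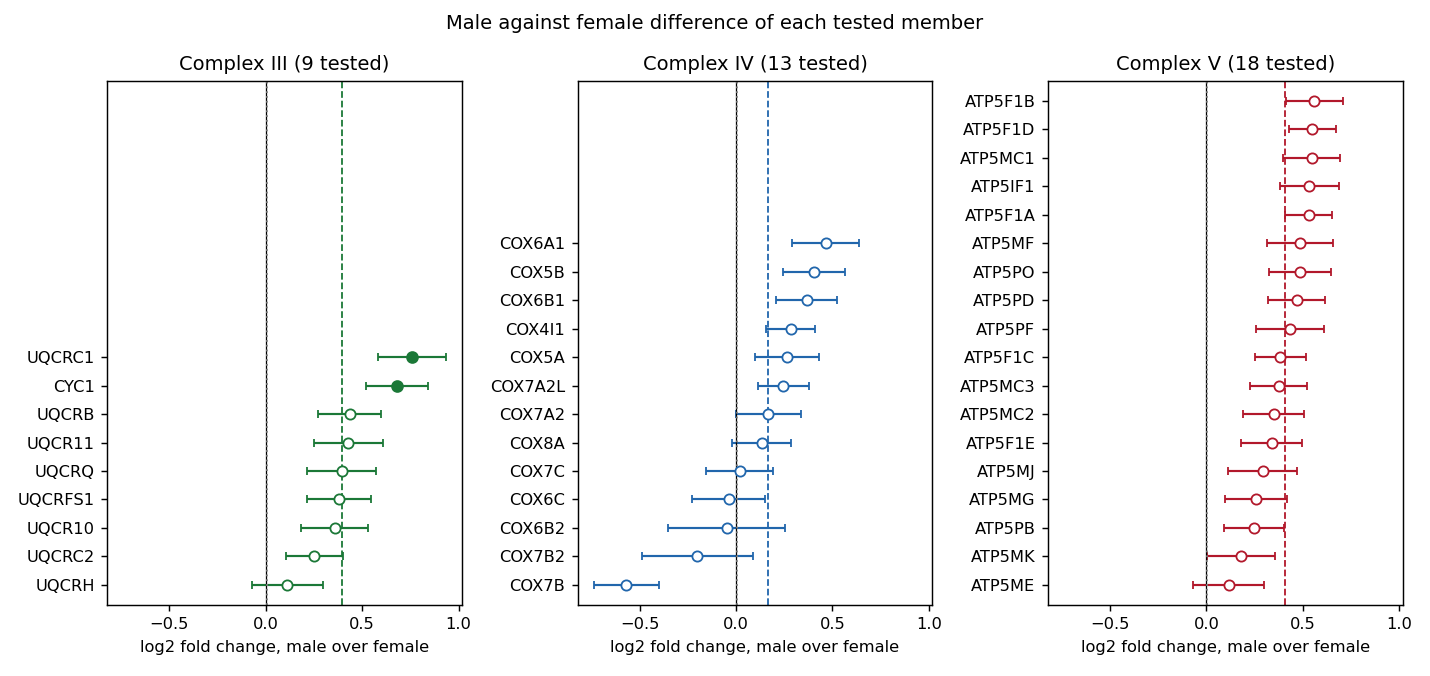
Log2 fold change of males over females (x axis, edgeR quasi-likelihood fit) for each tested member (rows) of complexes III, IV and V, with standard error bars; filled circles are called genes, the coloured dashed line is the median of the complex and the grey dotted line the median of all tested genes. All 9 members of complex III and all 18 of complex V lie right of 0, while complex IV runs from COX6A1 at 0.46 to COX7B at -0.57.

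Complex III had the 2 called genes. All 9 members had positive estimates, from 0.11 (UQCRH) to 0.76 (UQCRC1), with a median of 0.39, and 6 of the 9 had an unadjusted p under 0.05. UQCRC1 (chromosome 22, 51275060 to 51283828 in ARS-UCD2.0), a core protein on the matrix side of the complex, was at 152 CPM in the lowest, 259 in the median and 323 in the highest female library. In males 1 to 5 it was at 413, 372, 347, 401 and 633 CPM. All males lay above all females, and male replicate 5 stood apart from the other 4. The fold change was 1.69 (log2 0.76, SE 0.18, FDR 0.0707).

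CYC1 (chromosome 14, 738121 to 740518), cytochrome c1, the heme protein that donates electrons to cytochrome c, was at 338 to 495 CPM in females with a median of 400.4. The 5 males were at 629, 657, 606, 554 and 926 CPM. The sexes did not overlap, and male replicate 5 was again the highest. The log2 fold change was 0.68 (SE 0.16, FDR 0.0723). Without male replicate 5 the log2 fold changes were 0.65 for UQCRC1 and 0.55 for CYC1. Both FDR values lie close to 0.1. When each of the 11 libraries was left out in turn, UQCRC1 was called in 3 of the 11 fits and CYC1 in 3, with FDR values up to 0.211 and 0.223. With the replicate number of the sample titles as the block in place of the library number, neither was called (FDR 0.110 for UQCRC1 and 0.128 for CYC1).

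The other catalytic subunit and the other core protein had smaller estimates. UQCRFS1, the Rieske iron-sulfur protein, was at 374 to 602 CPM in females and 426 to 817 CPM in males, a log2 fold change of 0.38 (SE 0.17, FDR 0.357), and the sexes overlapped. UQCRC2, the partner core protein of UQCRC1, was at 349 to 394 CPM in females and at 476, 410.2, 510, 465 and 288 CPM in males 1 to 5. Thus 4 males were above all females and male replicate 5, the library with the most UQCRC1, was below all of them. The log2 fold change of UQCRC2 was 0.25 (SE 0.15, FDR 0.502).

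The 5 small accessory subunits of complex III had a median log2 fold change of 0.39 and none was called. UQCRB (chromosome 14, 67986641 to 67991358), a subunit at the ubiquinone-binding side, was the next member by p. Its level was 590 to 679 CPM in females and 808, 720.5, 858, 1166 and 623 CPM in males 1 to 5, a log2 fold change of 0.44 (SE 0.16, FDR 0.270). UQCR11, UQCRQ and UQCR10 had log2 fold changes of 0.43, 0.39 and 0.36, and each was highest in male replicate 4. UQCRH, the hinge protein that binds cytochrome c1, was at 274 to 419 CPM in females and 305 to 540.5 CPM in males, and its estimate fell below 0 (-0.075) without male replicate 4. Across complex III that replicate lowered the median to 0.22 when left out.

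Cytochrome c itself (CYCS, chromosome 4, 70735436 to 70738314), which carries electrons from complex III to complex IV, did not pass the test. Females were at 556 to 726 CPM with a median of 667, and males at 899, 596, 888, 922 and 567 CPM. Male replicates 1, 3 and 4 lay above every female and the other 2 among them. The log2 fold change was 0.26 (SE 0.17, FDR 0.569).

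**Figure D2:**
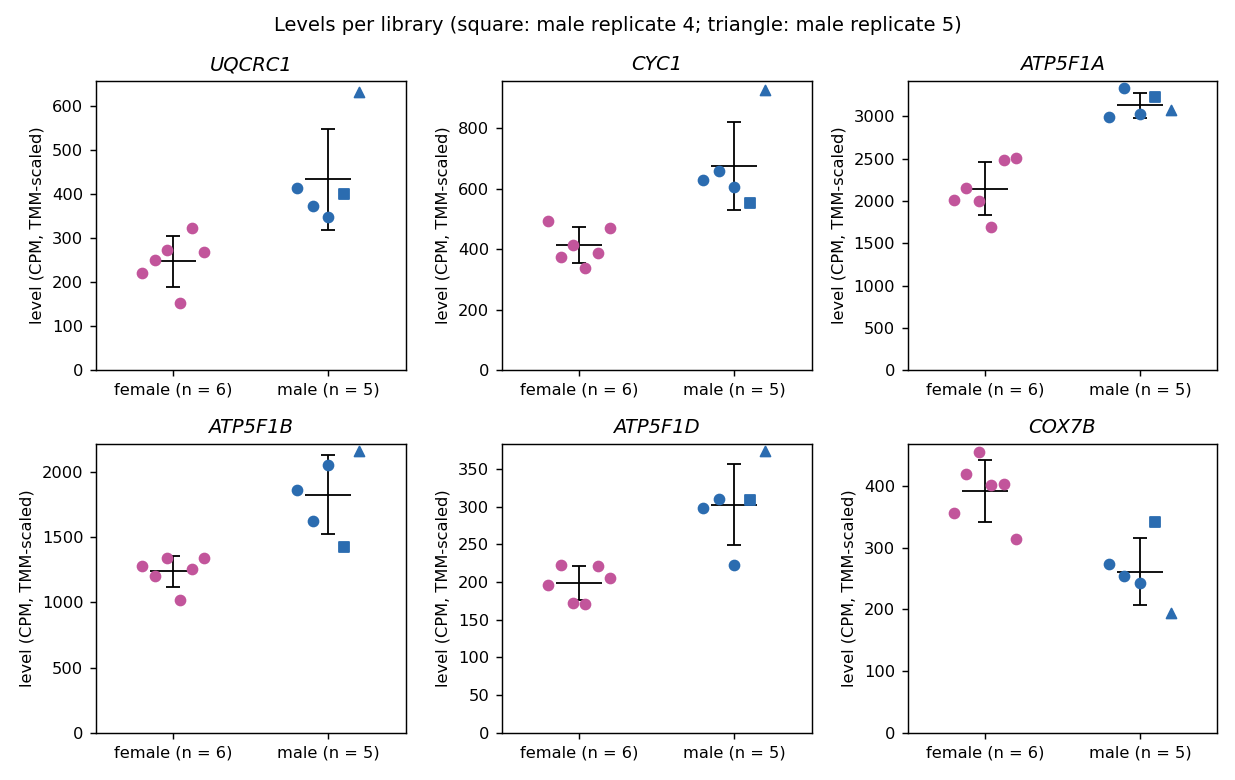
Level in CPM scaled with TMM factors (y axis, from 0) of 6 members in each female (n = 6) and male (n = 5) library, with the mean and SD in black. The 5 males lie above the 6 females for UQCRC1, CYC1, ATP5F1A and ATP5F1B, 1 male (male replicate 3, 222.2 CPM) lies just below the highest female for ATP5F1D, and COX7B is lower in males with overlap through male replicate 4 (the square) at 342 CPM.

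Complex IV differed in pattern from both. Of its 13 tested members 9 had a positive and 4 a negative estimate, and the median was 0.17. None was called and in none did every male lie above every female. The negative estimates were those of COX6C, the X-linked COX7B, and COX6B2 and COX7B2, isoforms known from testis. Complexes III and V have no X-linked member and no such tissue-restricted isoform. The part of this make-up in the contrast between complexes was not tested. Without male replicate 4 the median of complex IV was 0.016. The 10 ubiquitous subunits, which every tissue uses, had a median of 0.22. Highest among them was COX6A1 (chromosome 17, 62744136 to 62746010), at 775 to 916 CPM in females and 1171, 1090.3, 1124, 1652 and 774.8 CPM in males, a log2 fold change of 0.46 (SE 0.18, FDR 0.276). Male replicates 1 to 4 were above all females and male replicate 5, at 774.8 CPM against 775.4 in the lowest female, was the lowest of all 11 libraries. COX5B (chromosome 11, 2947406 to 2949454), a zinc-binding subunit on the matrix side, was at 816 to 1111 CPM in females and 1232, 1265, 1275, 1707 and 950 CPM in males, with male replicates 1 to 4 above all females and male replicate 5 among them. Its log2 fold change was 0.41 (SE 0.16, FDR 0.296).

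COX6B1 (0.37) and COX4I1 (0.28) completed the complex IV members with a p under 0.05 and a higher level in males. COX5A, at 0.26, and COX7A2, at 0.17, were each highest in male replicate 4 and lowest in male replicate 5. COX8A, COX7C and COX6C lay near 0. COX8A was at 391 to 453 CPM in females and 393 to 617 CPM in males (log2 0.13, SE 0.15). COX7C was at 455 to 603 CPM in females and 409 to 815 CPM in males (log2 0.019, SE 0.17), and COX6C at 602 to 782 CPM in females and 444 to 952 CPM in males (log2 -0.039, SE 0.19). COX7A2L, which helps complexes III and IV to join in a supercomplex, was at 305 to 432 CPM in females and 373 to 511.5 CPM in males (log2 0.25, SE 0.13, FDR 0.471).

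COX7B (chromosome X, 74502510 to 74507315), a small subunit needed for assembly of the complex, was the one member with a lower level in males at an unadjusted p under 0.05. Females were at 314 CPM in the lowest, 402 in the median and 455 in the highest library. Males 1 to 5 were at 274, 254.5, 242, 342 and 194 CPM. Male replicates 1, 2, 3 and 5 were below all females and male replicate 4 was among them. The log2 fold change was -0.57 (SE 0.17, FDR 0.158), or 0.674 of the female level, which did not pass the FDR. Without male replicate 4 it was -0.74 and called. X-linked genes as a whole had a median of -0.85, and 27.7% of the 476 tested were called as higher in females, while in 29.2% every female lay above every male. Without COX7B the median of complex IV was 0.21.

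Several complex IV subunits have second isoforms known from heart and muscle, testis or lung, and these were scarce. COX8B had 0 counts in all 11 libraries, where 3 counts would correspond to 0.145 to 0.413 CPM. It shares 1511 bases with NBAS, which had 1930 counts. How reads from such a stretch were counted is not given, so the 0 cannot be read as absence. COX4I2, the hypoxia-linked isoform of lung, had 3 counts in all, and COX6A2, of heart and skeletal muscle, had 23. COX7A1, also of heart and muscle, had 132 counts, mostly from male replicate 5, where it reached 4.26 CPM against at most 1.37 in any other library and made up 1.51% of COX7A counts. The isoforms known from testis were the ones with testable counts. COX6B2 was at 4.21 to 6.60 CPM in females and 3.60 to 9.53 CPM in males and made up 1.21% of COX6B1 and COX6B2 counts in females (SD 0.220, n = 6) and 0.961% in males (SD 0.269, n = 5). COX7B2 was at 15.2 to 33.1 CPM in females and 13.8 to 31.8 CPM in males, or 5.88% of COX7B and COX7B2 counts in females (SD 1.39, n = 6) and 7.82% in males (SD 2.77, n = 5). The log2 fold changes were -0.048 for COX6B2 and -0.20 for COX7B2, each within its SE (0.30 and 0.29).

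Complex V had positive estimates for all 18 members, from 0.12 (ATP5ME) to 0.56 (ATP5F1B), with a median of 0.41. None was called, since none had a fold change over 1.5, the largest being 1.475 (ATP5F1B). Of the 18, 12 had an unadjusted p under 0.05. Without male replicate 4 the median was 0.26 and the estimates of ATP5ME and ATP5MK were below 0. The F1 head, which makes the ATP, had a median of 0.53 over 5 genes. ATP5F1A (chromosome 24, 45841918 to 45850825), the alpha subunit, was at 1693 to 2510 CPM in females and at 2992, 3335, 3022, 3225 and 3077 CPM in males. The males were close together and all above the highest female. The log2 fold change was 0.53 (SE 0.12, FDR 0.0675), or 1.44-fold.

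ATP5F1D (chromosome 7, 43683704 to 43685876), the delta subunit of the central stalk, was at 171 to 222.4 CPM in females, median 201, and at 299, 310.2, 222.2, 309 and 373 CPM in males. Male replicate 3 was just under the highest female and the others were above all females. It had the smallest FDR of the members (0.0627; log2 0.55, SE 0.12, 1.46-fold). ATP5F1B (chromosome 5, 56789641 to 56795014), the catalytic beta subunit, was at 1022 to 1342 CPM in females, median 1266, and at 1864, 1625, 2056, 1424 and 2160 CPM in males (log2 0.56, SE 0.15, FDR 0.103). For this gene male replicate 4 was the lowest male, in contrast to most members, and without it ATP5F1B was called (FDR 0.0404). ATP5F1C, the gamma subunit, was at 936 to 1141 CPM in females and 1216 to 1691 CPM in males with no overlap (log2 0.38, SE 0.13, FDR 0.228), and ATP5F1E, the epsilon subunit, had a log2 fold change of 0.34.

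The inhibitor ATP5IF1 (chromosome 2, 125145440 to 125147684), which binds the F1 head and limits ATP hydrolysis, was at 540.0 to 661 CPM in females and 831, 816, 695, 1215 and 877 CPM in males. The sexes did not overlap. The log2 fold change was 0.53 (SE 0.15, FDR 0.135). The estimate lay within those of the F1 subunits, which ran from 0.34 to 0.56.

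The membrane ring through which protons pass is built of one protein encoded by several genes, ATP5MC1, ATP5MC2 and ATP5MC3, whose mature products are alike. ATP5MC1 (chromosome 19, 37618774 to 37621443) was at 499 to 679 CPM in females and 750.4, 925, 674, 1253 and 892 CPM in males, a log2 fold change of 0.55 (SE 0.15, FDR 0.122). Male replicate 3 lay among the females and the other 4 males above them. ATP5MC3 and ATP5MC2 had log2 fold changes of 0.37 and 0.35. ATP5MC1 made up 21.97% to 28.02% of the counts of the 3 genes in females and 22.45% to 35.03% in males. ATP5MC2 made up 16.5% ± 2.18 in females and 15.2% ± 3.94 in males (SD, n = 6 and 5), and ATP5MC3 57.9% ± 1.62 and 55.9% ± 2.61. These shares overlapped between the sexes, and how reads that fit more than one of the genes were counted is not given in the sources used here.

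The peripheral stalk, which holds the head still while the ring turns, had a median of 0.45 over ATP5PO, ATP5PD, ATP5PF and ATP5PB (0.49, 0.47, 0.43 and 0.25). The 5 small subunits of the membrane part had a median of 0.26, with ATP5MF at 0.49 and 1 of the 5 at a p under 0.05. ATP5ME, at 83.5 to 106 CPM in females and 82.3 to 154 CPM in males, had an SE of 0.18 and an estimate below 0 (-0.077) without male replicate 4. ATP5PF shares 698 bases with GABPA, whose counts were 18.1% of those of ATP5PF. COX4I1 shares 805 bases with EMC8 (12.8%) and ATP5ME 902 bases with MYL5 (7.02%). No source used here states that strand was used in counting, so reads from those stretches cannot be told apart.

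The complexes were then set side by side. Summed over members, the mean of complex III was 3428 CPM in females (SD 184, n = 6) against 4690.0 CPM in males (SD 584, n = 5). That of complex V was 13394 CPM (SD 693) against 18206 CPM (SD 2363). For both, all 5 males lay above all 6 females, and the ratios of the means were 1.37 and 1.36. Complex IV was at 6650.4 ± 405 and 7800.4 ± 1669 CPM, a ratio of 1.17, with 3 of the 5 males above all females and male replicate 5, at 5868 CPM, below all of them. Without TMM scaling, complex III took 0.332% to 0.385% of all counts in females and 0.393% to 0.497% in males. Complex V took 1.27% to 1.53% and 1.56% to 1.95%, so these sums stayed apart by sex on either scale. In such sums the most abundant members weigh most. The ratios were then 1.26, 1.07 and 1.25 for complexes III, IV and V.

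Within a library, the ratio of complex III to complex V was alike in the sexes. The ratio of complex IV to either was lower in males on average, with overlap in the sums. The summed CPM of complex III was 0.251 to 0.269 of that of complex V in females and 0.233 to 0.284 in males. The corresponding ratio of complex IV to complex V was 0.456 to 0.518 in females and 0.363 to 0.469 in males, lowest in male replicate 5. That of complex III to complex IV was 0.485 to 0.551 in females and 0.542 to 0.782 in males, with 4 males above all females. With all tested members included, a median over members, which gives every gene the same weight, showed a clearer split. With each gene expressed as its log2 deviation from its mean over the 11 libraries, the median of complex IV minus that of complex V was between -0.0037 and 0.14 in females and between -0.12 and -0.034 in males. Complex III minus complex IV lay between -0.17 and 0.0047 in females and between 0.032 and 0.15 in males, whereas complex III minus complex V overlapped (-0.062 to 0.049 and -0.072 to 0.087). On these medians the sexes did not overlap in either comparison that involved complex IV. The medians of complex IV used all its tested members, COX7B and the testis isoforms included. With COX7B, COX6B2 and COX7B2 left out, the sexes overlapped in both of these comparisons, so the split depended on those genes. Taken alone, the median of complex V overlapped between the sexes, with females up to -0.014 and male replicate 5 at -0.078. That of complex III was at most -0.046 in females and at least -0.038 in males. The members were chosen with results of these data known, so no p is given for these differences between complexes and they were not tested.

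**Figure D3:**
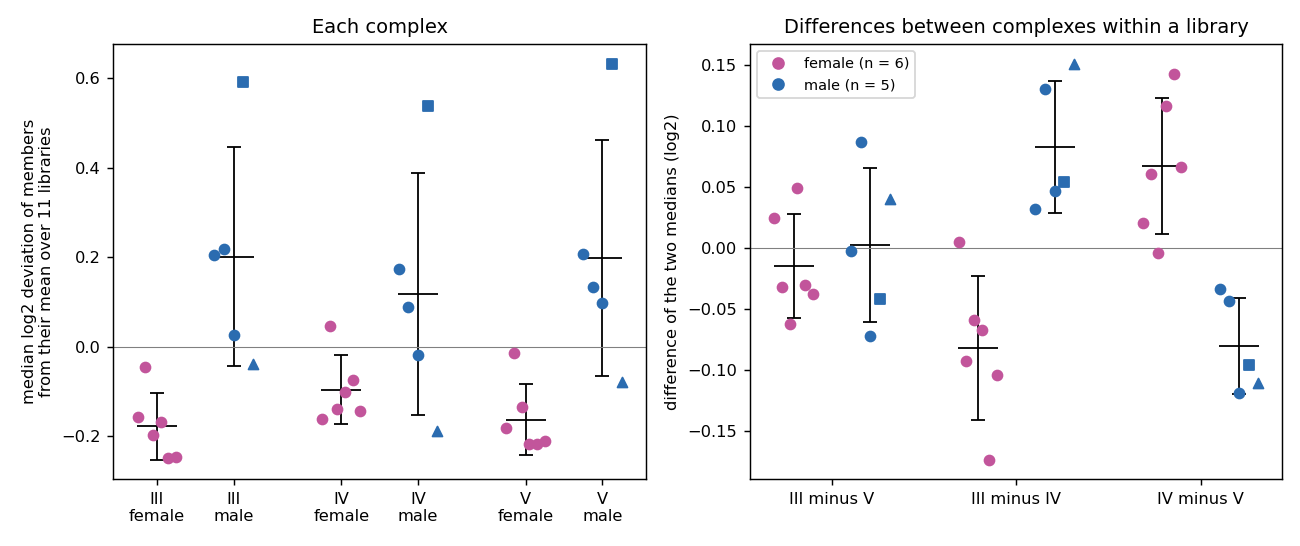
Left, median log2 deviation of the tested members of each complex from their mean over the 11 libraries, for each female (n = 6) and male (n = 5) library; right, differences of these medians between complexes within each library; black marks are the mean and SD, the square is male replicate 4 and the triangle male replicate 5. Complex III minus V overlaps between the sexes, while complex IV minus V is at -0.0037 to 0.14 in females and -0.12 to -0.034 in males. The medians of complex IV include COX7B and the testis isoforms, without which the sexes overlap.

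The differences were of the same sign within each library number, the first number in the library names. For numbers 1, 2 and 3, with 2 females in each and 2, 1 and 2 males, the median difference of males from females was 0.32, 0.27 and 0.66 for complex III, 0.10, 0.20 and 0.28 for complex IV and 0.23, 0.35 and 0.51 for complex V. Those of UQCRC1 were 0.74, 0.77 and 0.78, of CYC1 0.58, 0.70 and 0.75, and of COX7B -0.55, -0.82 and -0.47. Over all tested genes the median was -0.0065, 0.0078 and -0.017.

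The SD of the summed level of each complex was larger among males than among females, and single male libraries had profiles of their own. Male replicate 4 had the highest value of all 11 libraries for 31 of the 41 members and was above every female for 39, or 95.1%, while it was above every female for 21.0% of all tested genes and 39.6% of the abundant ones. Male replicates 1, 2 and 3 were above every female for 31, 26 and 23 members, against 13.8%, 18.7% and 18.2% of all tested genes and 18.2%, 29.6% and 31.7% of the abundant ones. Male replicate 5 was above every female for 12 members, or 29.3%, and for 30.2% of all tested genes. It held the highest value for CYC1, UQCRC1, ATP5F1B and ATP5F1D and the lowest for 9 members, 5 of them in complex IV (COX7A2, COX6C, COX6A1, COX5A and COX7B). For 2 members a female library had the highest value, COX7B (female replicate 3) and COX7B2 (female replicate 4). Male replicate 5 also had the highest summed level of trophectoderm markers, with KRT8, LGALS3 and KRT18 as its largest parts, and the fewest genes detected. The part of these features in its profile was not tested. Within a sex, the SD of a member's log2 CPM was 0.24 at the median and 0.13 to 0.45 in range, against a median of 0.48 over all tested genes.

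**Figure D4:**
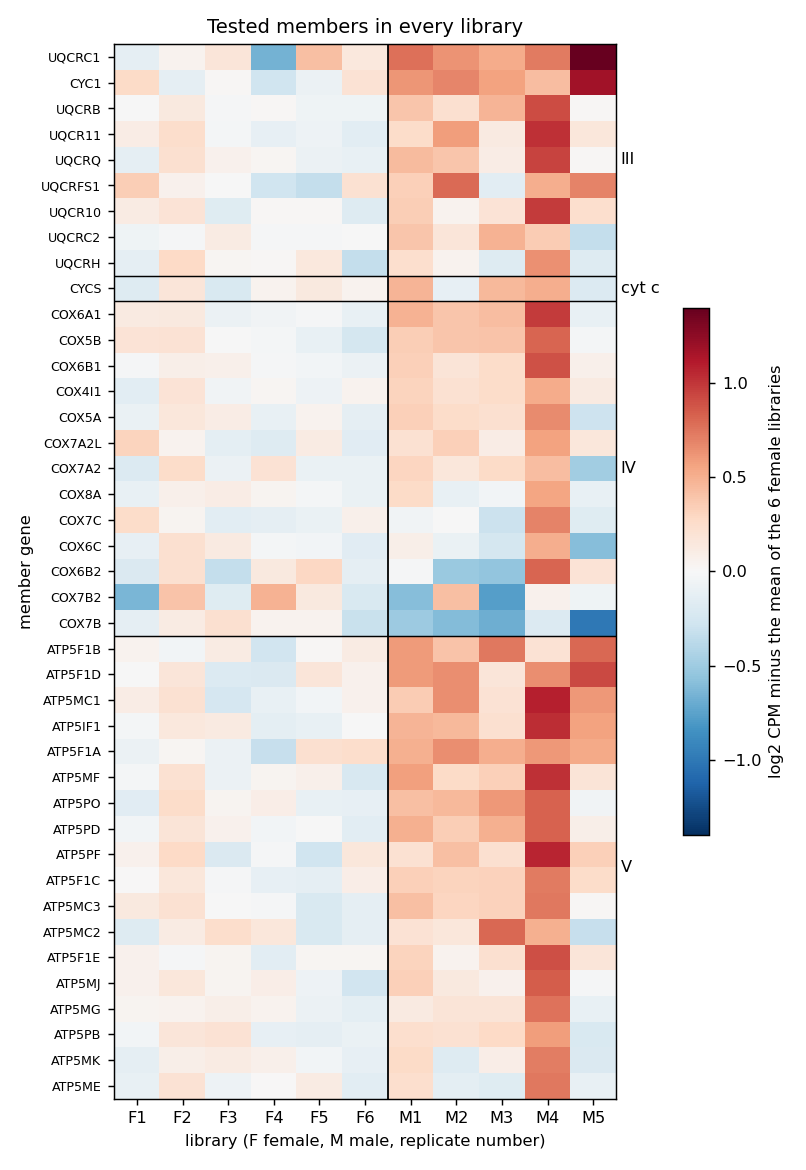
Log2 CPM of each tested member (rows, ordered within complex III, cytochrome c, complex IV and complex V by the log2 fold change) in each library (columns), minus the mean of the 6 female libraries; red is higher and blue lower. Male replicate 4 (M4) is red for nearly all members, whereas male replicate 5 (M5) is deep red for UQCRC1 and CYC1 and blue for COX7B, COX6C and COX7A2.

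Genes that build the complexes were counted next, from lists of assembly factors. No gene of these lists was called, where 1.91% of all tested genes were. Of all tested genes 50.5% had a higher estimate in males, and 6.26% were higher in males at an unadjusted p under 0.05. Among genes with a mean of 50 CPM or more these shares were 64.3% and 12.6%. All 9 complex III assembly factors were tested, 8 had a higher estimate in males, the median was 0.43 and 4 had a p under 0.05. UQCC4 (chromosome 25, 1119282 to 1120218) was at 42.2 to 65.5 CPM in females and 71.5, 107, 70.2, 100.4 and 89.4 CPM in males, with no overlap (log2 0.67, SE 0.18, FDR 0.122). BCS1L (chromosome 2, 106618314 to 106623101), which inserts the Rieske protein, was at 45.8 to 85.9 CPM in females and 87.6, 108, 74.3, 105 and 201 CPM in males (log2 0.68, SE 0.19, FDR 0.125). Male replicate 3 lay among the females and male replicate 5 was the highest.

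Of the genes listed for complex IV assembly 27 of 29 were tested, 23 had a higher estimate in males and the median was 0.17. The list includes NDUFA4 (log2 0.086, SE 0.18), which is a subunit of complex IV whose symbol lies outside the rule used here. Of the 27, 3 had a p under 0.05, all higher in males, a share between those of all tested genes and of abundant ones. The smallest p values were those of SCO2, a copper carrier (chromosome 5, 119822432 to 119824250; log2 0.65, SE 0.23, FDR 0.238), and SMIM20 (chromosome 6, 45403482 to 45416235; log2 0.36, SE 0.15, FDR 0.314). Of the 6 complex V assembly factors 5 had a higher estimate in males, with a median of 0.40 and 2 at a p under 0.05, DMAC2L (chromosome 10, 43219972 to 43232045; log2 0.67, SE 0.22, FDR 0.205) and TMEM70 (chromosome 14, 37219358 to 37233935; log2 0.53, SE 0.18, FDR 0.236). As among the subunits, complex IV had the lowest of the 3 medians, a difference that was not tested. Nuclear regulators of respiratory genes had a median of 0.014 over 13 genes, with 8 higher in males. Of these PPARGC1A, a coactivator of mitochondrial biogenesis (chromosome 6, 43380463 to 44095232), was at 0.654 to 7.56 CPM in females and 0 to 1.59 CPM in males with overlap (log2 -2.32, SE 0.92, FDR 0.300 in edgeR), and POLRMT, the mitochondrial RNA polymerase (chromosome 7, 43234029 to 43247532), had a log2 fold change of -0.46 (SE 0.26, FDR 0.492).

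The subunits of the same complexes that the mitochondrial genome encodes did not pass the test. CYTB of complex III had a log2 fold change of 0.086 (SE 0.24). COX1, COX2 and COX3 of complex IV were at -0.091, 0.21 and 0.32, and ATP6 and ATP8 of complex V at 0.023 and 0.31, with SE of 0.19 to 0.30 and no FDR under 0.63. Male replicate 5 was the lowest of the 11 libraries for all 6. COX1, for example, was at 13407 to 17986 CPM in females and at 14136, 14308, 21085, 17620.2 and 7082 CPM in males 1 to 5.

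The members lie on 22 chromosomes, with 5 on chromosome 18 and 4 on chromosome 7. Only 3 neighbouring pairs were closer than 1 Mb. ATP5F1D and UQCR11 are 290382 bases apart, UQCR11 and UQCRQ 468417, and COX6B1 and COX7A1 419363.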

How the data were processed

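Per the submitters' notes, the authors used fastp 0.20.0 for trimming, STAR 2.7.10b for alignment to the bovine assembly and featureCounts for counting per gene. The deposited values are raw counts of 32637 genes in 11 libraries, with no normalization. Symbols were matched to the RefSeq annotation of ARS-UCD2.0, which gave the coordinates for 30271 genes and all 45 members. No exon lengths were used. The shares and ratios between genes or complexes are therefore of counts or CPM and are not corrected for transcript length. All 11 libraries were kept. The separate Iso-seq sample was not analysed here.

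The sexes were compared with edgeR 4.0.16 (R 4.3.3): filterByExpr by sex, TMM factors, and the quasi-likelihood test over 12802 genes with the library number as a block, standing in for the collection week that the study used as a covariate. The common biological coefficient of variation was 0.403. Log2 CPM used a prior count of 2. DESeq2 1.42.0 was an alternative, and the others were no block, the title's replicate number as block, RLE factors, TMM factors from autosomal genes, other filters on low counts (none, or 1 CPM in 5 libraries), an FDR under 0.05 and leaving out each library. The test was tested on simulated data. Summaries used python 3.11.15, pandas 2.3.3 and numpy 2.4.6.

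The members and lists were chosen with earlier results of these data known. Values were given for called members, the 3 of each complex with the smallest p, the X-linked member, CYCS, ATP5IF1, the isoform families, and 2 of each assembly or regulator list with the smallest p, and other members were named after their values were seen. Pools were separate embryos of 1 sex, so p-values measure the spread between such pools. A limit of 3 counts was used for a value of 0, and it covers counting error only.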

Additional observations from a re-analysis of the deposited data

Results flagged for a closer look

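Values of single libraries that stood apart from the rest of their sex were searched for in 88 groups (each tested member and each summed complex, in females and in males). The gap to the nearest library was compared with the range of the group, both on the log scale (Dixon's 95% value). The levels below are printed in CPM, and a search in CPM would not mark the same groups. In CPM, CYC1 in male replicate 5 would be marked too. On the log scale there were 6 such groups, and chance gives about 1 in 20. Among males, replicate 4 was apart for ATP5PF (1630 CPM, the others 902 to 1041), for ATP5F1C (1691 CPM, the others 1216 to 1288) and for the summed level of complex V (22290 CPM, the others 16160 to 17620). Replicate 5 was apart for UQCRC1 (633 CPM, the others 347 to 413). Among females, replicate 4 was low for ATP5F1E (226 CPM, the others 249 to 262) and replicate 3 high for UQCRC2 (394 CPM, the others 349 to 363).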

How the results depend on the processing

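The direction and side of the threshold stayed the same in 697 of the 738 comparisons of a member's log2 fold change with an alternative. In 18 the sign changed, in 18 a call was lost and in 5 a call was gained. Only UQCRC1 and CYC1 had a call to lose. Most comparisons are of members not called with all libraries, so the share that stayed the same does not show that the calls are stable. The medians of complexes III, IV and V were 0.39, 0.17 and 0.41 with all libraries. Leaving out 1 library gave 0.22 to 0.50, 0.016 to 0.28 and 0.26 to 0.47, the lowest without male replicate 4 in each case. These shifts were within the SD of the library medians within a sex (0.173, 0.189 and 0.186). Leaving out 1 library moves a group difference by only a part of that library's own deviation. Staying within this SD therefore cannot show that the median of any complex is stable. For complex IV that SD is also larger than the median itself. The library numbers do not show pairing: same-numbered females and males correlated between -0.111 and 0.351, with 4 of 10 pairs over 0.1, and 6 of 11 libraries correlated best with their own number. With no replicate block, 4 members were called (ATP5F1D, ATP5MC1, CYC1 and UQCRC1), 2 of them in complex V. With the title number as block there were 0 called members, 0 in complex III, and 132 genes in all against 245. An FDR under 0.05 left 0 members, 0 in complex III, and 125 genes. All genes numbered 743 with no low-count filter and 611 with DESeq2, where UQCRC1 and CYC1 were called too. Leaving out 1 library gave 0 to 4 called members, 0 to 2 in complex III, 0 to 1 in complexes IV and V, 11 to 29 at an unadjusted p under 0.05 (23 with all libraries) and 95 to 364 genes in all. UQCRC1 stayed called without female replicate 3 or male replicate 4 or 5, and CYC1 without female replicate 1 or 3 or male replicate 4. Signs changed for COX7C with autosomal factors (-0.0043), COX6B2 with no block (0.063) and, on leaving out 1 library, for COX7C (-0.18 to 0.093), COX6B2 (-0.23 to 0.091), UQCRH (-0.075 to 0.21), COX7B2 (-0.41 to 0.031), ATP5ME (-0.077 to 0.20), COX6C (-0.27 to 0.074), ATP5MK (-0.014 to 0.27) and COX8A (-0.0098 to 0.21). Library totals without TMM factors gave ratios of 1.26, 1.07 and 1.25 for complexes III, IV and V. The causes were not tested. The motif search was not run, since no promoter sequences were used here. Depth does not limit the 39 abundant members, which had at least 672 counts in every library, and limits the second isoforms of complex IV.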
